A study of Homo sapiens with 52 samples.

Results

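The 9 genes described here encode proteins that unwind DNA at replication forks or supply its building blocks in S phase. They are MCM2, MCM4, MCM5, MCM6 and MCM7, subunits of the replicative helicase, PCNA, the sliding clamp, RRM1 and RRM2, subunits of ribonucleotide reductase, and TYMS, thymidylate synthase. Each gene was read from 1 transcript that was picked by its identifier, so 9 of the 226882 transcripts in the deposited table are members. The members were chosen with earlier results of these data known. The transcripts are ENST00000265056.12 for MCM2, ENST00000262105.6 for MCM4, ENST00000216122.9 for MCM5, ENST00000264156.3 for MCM6, ENST00000303887.9 for MCM7, ENST00000379143.10 for PCNA, ENST00000300738.10 for RRM1, ENST00000304567.10 for RRM2 and ENST00000323274.15 for TYMS. The pairing of identifier and gene came with the list of members, and no table that pairs transcript identifiers with genes was used here to check it. All 9 passed the filter on low counts in every comparison.

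The MCM proteins form a ring that is loaded on replication origins in G1 and activated as the helicase in S phase. PCNA encircles DNA behind the helicase and tethers the replicative polymerases. Ribonucleotide reductase makes deoxyribonucleotides from ribonucleotides. Its large subunit RRM1 holds the catalytic site, and its small subunit RRM2 supplies the radical and is the subunit best known to vary through the cell cycle. TYMS methylates dUMP to dTMP, the step that makes the DNA base thymine available. Genes of this kind are typical targets of the E2F transcription factors, and their mRNAs are widely read as a sign of proliferation. In bulk samples such as these, a smaller share of cells in S phase and less RNA per S-phase cell cannot be told apart.

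All libraries came from HEK293T, a human embryonic kidney line that carries the SV40 large T antigen, a viral protein known to inactivate the retinoblastoma protein that restrains E2F. The study compared the loss of 3 related factors that act on the small (40S) ribosomal subunit, namely eIF2D, and MCTS1 and DENR, which form a complex. RNA-seq measured mRNA, and Ribo-seq measured the stretches of mRNA shielded by ribosomes in lysates with cycloheximide. Each of these assays had 12 libraries, 2 for each of wild type cells, MCTS1 knockout (KO) clone #1, MCTS1 KO clone #2, cells given a control siRNA (siControl), and cells given DENR siRNA #1 or DENR siRNA #2. TCP-seq, which profiles mRNA fragments held by translation complexes, had 4 wild type libraries and 8 from knockouts, 2 per clone, with clones #1 and #2 of eIF2D KO and of MCTS1 KO. 40S Sel-TCP-seq, in which 40S complexes were selected by a tagged factor, had 2 libraries for each of eIF2D-V5, MCTS1-V5 and DENR-V5. A KO clone is a single clone, and the sources used here do not give how the tagged factors were expressed or how long after siRNA transfection cells were taken. The levels of the targeted genes were not analysed here, so genotype and depletion rest on the labels.

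Depth set how closely the members could be read. Library totals ran from 76967099 to 301214608 counts in RNA-seq, from 16370112 to 193940882 in Ribo-seq, from 1609303 to 5053637 in TCP-seq and from 356019 to 2582917 in Sel-TCP-seq. MCTS1 KO clone #1 held the deepest library of each of the RNA-seq and Ribo-seq sets, and the part that this plays in its changes was not tested. TYMS had 1874 to 8735 counts per RNA-seq library, 405 to 6202 per Ribo-seq library, 15 to 53 per TCP-seq library and 1 to 50 per Sel-TCP-seq library. MCM7 had 6304 to 26548, 1738 to 23368, 72 to 257 and 20 to 218. Levels are given as CPM, counts per 1000000 of the library total. Transcript lengths were not used here, so levels are compared between samples of 1 gene and not between genes. Reads may be counted for several transcripts of a gene, and the 3′ end of TYMS overlaps the gene ENOSF1 on the other strand, whose reads cannot be told apart without knowledge of strand use. No other transcript had the same counts as a member in every library.

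Promoter sequences were looked up because genes of this group share E2F control in textbook accounts and because the members moved differently in the comparisons that follow. RefSeq promoter windows (GRCh38.p14, 250 bases before to 50 bases after an annotated start) were found for 7 of the 9 genes, in 11 windows. MCM5 had no window, nor did MCM4, which also fell in RNA-seq of DENR-depleted cells. Each was searched on both strands for 4 E2F-like words (TTTCCCGC, TTTCGCGC, TTTGCCGC and TTTGGCGC) and for CCAAT, the word of the factor NF-Y. Printed first is the window of RRM2, the member that fell most in DENR-depleted cells, at chr2:10122489-10122788 on the + strand. PCNA (chr20:5126573-5126872, - strand) fell there too, while MCM2 (chr3:127598161-127598460, + strand) and MCM6 (chr2:135876394-135876693, - strand) did not pass the test. Capitals mark the matches, which are spelled as their reverse complement where they lie on the other strand, and all else is in lower case.
RRM2: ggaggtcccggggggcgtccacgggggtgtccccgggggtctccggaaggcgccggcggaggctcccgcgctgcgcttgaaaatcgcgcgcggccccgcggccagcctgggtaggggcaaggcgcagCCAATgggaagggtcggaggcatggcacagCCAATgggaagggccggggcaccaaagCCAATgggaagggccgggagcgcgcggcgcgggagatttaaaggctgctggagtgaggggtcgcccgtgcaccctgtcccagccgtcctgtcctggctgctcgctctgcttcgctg
PCNA: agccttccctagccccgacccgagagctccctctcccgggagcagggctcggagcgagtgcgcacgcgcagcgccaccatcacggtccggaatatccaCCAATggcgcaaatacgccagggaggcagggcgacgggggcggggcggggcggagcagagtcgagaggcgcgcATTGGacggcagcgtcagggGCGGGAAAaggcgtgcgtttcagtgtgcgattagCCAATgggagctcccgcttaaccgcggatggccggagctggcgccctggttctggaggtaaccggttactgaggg
MCM2: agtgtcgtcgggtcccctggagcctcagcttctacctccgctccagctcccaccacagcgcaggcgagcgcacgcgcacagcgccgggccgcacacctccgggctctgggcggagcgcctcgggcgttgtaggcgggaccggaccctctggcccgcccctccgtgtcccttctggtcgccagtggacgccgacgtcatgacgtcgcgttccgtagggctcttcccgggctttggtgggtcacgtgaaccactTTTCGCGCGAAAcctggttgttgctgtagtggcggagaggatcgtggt
MCM6: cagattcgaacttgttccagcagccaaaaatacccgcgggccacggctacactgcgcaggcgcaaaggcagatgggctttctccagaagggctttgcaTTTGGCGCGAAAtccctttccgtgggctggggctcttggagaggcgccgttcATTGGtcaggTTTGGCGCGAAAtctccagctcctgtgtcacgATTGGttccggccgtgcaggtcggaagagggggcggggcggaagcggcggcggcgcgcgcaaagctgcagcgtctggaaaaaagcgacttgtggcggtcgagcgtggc
The RRM2 window held 3 CCAAT words, all on the printed strand, and 0 E2F-like words. The PCNA window held 3 CCAAT words and 1 E2F-like word. In MCM2 and MCM6 each E2F-like word overlapped another on the opposite strand, so that 2 matches were counted in MCM2 and 4 in MCM6, and MCM6 also held 2 CCAAT words. The first window of MCM7, which did not pass the test in the mean of both siRNAs either, held 3 CCAAT words and 2 E2F-like words. The second windows of RRM2 and PCNA held 1 and 2 CCAAT words and 0 E2F-like words. RRM1 and TYMS, which did not pass that test either, held 1 CCAAT and 0 E2F-like words and 0 CCAAT and 1 E2F-like word. Of 35116 RefSeq promoter windows of this length, 3.31% held an E2F-like word, 34.6% held CCAAT and 3.26% held 3 or more CCAAT words. An E2F-like word was found in a window of 5 of the 7 genes (MCM2, MCM6, MCM7, PCNA and TYMS). CCAAT was also found in a window of 5 of the 7 (MCM6, MCM7, PCNA, RRM1 and RRM2). These are counts of genes over any of their windows, 11 in all, while the shares above are of single windows. These matches describe letters in a window and were not tied to any binding measured here. Whether they bear on the changes with DENR siRNA was not tested.

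Relative to RNA-seq, Ribo-seq placed the members above most transcripts. Transcript length largely cancels in the ratio of Ribo-seq to RNA-seq CPM. The share of a transcript that is coding does not cancel and was not used here. In wild type cells this ratio was lowest for TYMS (1.16) and MCM7 (1.24) and highest for MCM5 (1.71), PCNA (1.71) and RRM1 (2.07). The median over the 9 members was 1.54, beside 0.858 over the 71077 transcripts with at least 1 CPM in both assays. All 9 lay above that median, at percentiles 71.7 to 96.6. The same held in each of the other 5 conditions, where the lowest member stood between percentiles 68.0 and 70.4. RRM1 led in 5 of the 6 conditions and PCNA led in MCTS1 KO clone #1, with a ratio of 2.09 against 1.97 for RRM1. These ratios come from 2 libraries per assay and carry no test. The transcripts set beside the members were not limited to coding ones, so the percentiles do not rank the members among translated mRNAs.

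Relative to Ribo-seq, TCP-seq placed the members below the median transcript. Ribo-seq stood above the median relative to RNA-seq for all 9 and is the denominator here, so the low values are not independent of that. In wild type cells the ratio of TCP-seq to Ribo-seq CPM ran from 0.262 for TYMS to 0.621 for PCNA, and all 9 members lay below the median of 0.969 over 64995 transcripts, at percentiles 6.64 to 28.2. Against RNA-seq, TCP-seq placed 3 of the 9 above the median transcript (MCM4, MCM5 and PCNA) and TYMS lowest at percentile 6.03. The median percentile over the members was 42.9. Assay and preparation cannot be told apart in these ratios.

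**Figure D1:**
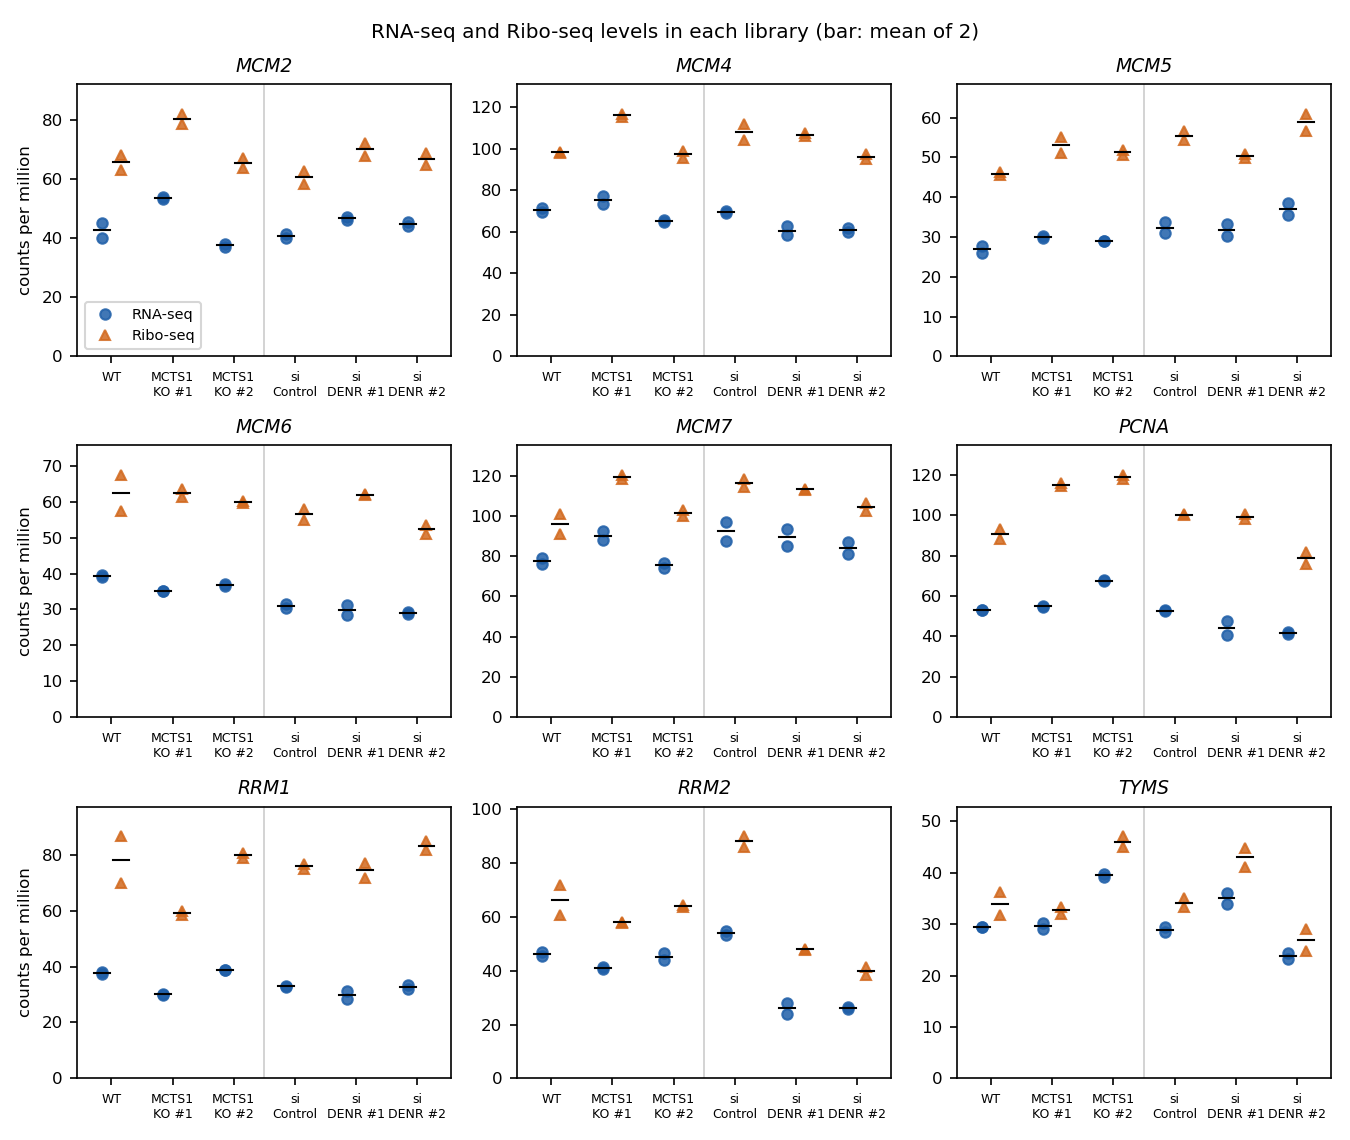
RNA-seq (circles) and Ribo-seq (triangles) levels of the 9 genes in CPM, from 0, in each library of the 6 conditions, with a bar at the mean of 2 libraries. RRM2 lies lower in all 4 libraries given DENR siRNA than in every other library of its assay, while PCNA and TYMS lie highest in MCTS1 KO clone #2 in RNA-seq.

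In RNA-seq the mean of both MCTS1 KO clones differed from wild type in most members, but by little and not in 1 direction. Relative to wild type, the mean of both KO clones was higher for TYMS (log2 change 0.22 ± 0.038 SE), PCNA (0.20 ± 0.034), MCM5 (0.14 ± 0.039) and MCM7 (0.094 ± 0.034), and lower for RRM1 (-0.15 ± 0.036), MCM6 (-0.13 ± 0.036) and RRM2 (-0.099 ± 0.035). MCM2 (0.078) and MCM4 (-0.0013) did not pass an adjusted p of 0.05 in edgeR's quasi-likelihood test. That is 7 of 9 called beside 24.9% of the 131951 transcripts tested, or 4 higher beside 11.4% and 3 lower beside 13.5%, and the median over the members was 0.078 beside -0.0051 over all transcripts. Here and below, such shares include many transcripts with few counts, in which a change is harder to call, and were not matched for level. Over the 12 RNA-seq libraries 39973 other transcripts had a mean of at least 5 CPM, and the lowest member value in any library was 23.3 CPM. MCM7 and RRM2 lost the call with DESeq2 (adjusted p = 0.0985 and 0.118). The calls were also lost for MCM7 without clone #1 library 2, clone #2 library 1 or 2 or wild type library 2 (0.073, 0.082, 0.11 and 0.062), for RRM2 without clone #2 library 1 or wild type library 1 (-0.080 and -0.064), and for MCM5 and MCM6 without wild type library 2 (0.080 and -0.12), and MCM2 was called without clone #1 library 1 or wild type library 1 (0.090 and 0.17).

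The clones differed in most members, so their mean describes neither. Loss of MCTS1 and other differences between a clone and wild type cells cannot be told apart. TYMS stood at 29.4 and 29.5 CPM in wild type, 29.0 and 30.2 in clone #1 and 39.7 and 39.2 in clone #2. Clone #2 was thus above every wild type library and clone #1 overlapped wild type. PCNA was at 53.1 and 53.3 CPM in wild type, 55.3 and 54.8 in clone #1 and 67.6 and 67.7 in clone #2. For both genes the change lay in clone #2 (log2 0.47 ± 0.044 for TYMS, adjusted p = 9.86e-14, and 0.39 ± 0.039 for PCNA, adjusted p = 1.30e-12), while clone #1 showed -0.03 and 0.010. RRM1, the large reductase subunit, moved in the other clone: it was at 37.5 and 38.2 CPM in wild type, 29.8 and 30.3 in clone #1 and 38.9 and 39.0 in clone #2. Clone #1 was below every other library of that comparison (-0.37 ± 0.041, adjusted p = 8.74e-12). MCM2 was at 45.2 and 40.1 CPM in wild type, 53.3 and 54.1 in clone #1 and 37.2 and 38.0 in clone #2, which placed the clones on either side of wild type.

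Tested against each other in RNA-seq, clone #2 differed from clone #1 in 8 of 9 members, beside 45.8% of all transcripts. Clone #2 was higher in TYMS (0.50 ± 0.041), RRM1 (0.45 ± 0.041), PCNA (0.38 ± 0.038), RRM2 (0.23 ± 0.040) and MCM6 (0.15 ± 0.040), and lower in MCM2 (-0.43 ± 0.042), MCM7 (-0.17 ± 0.038) and MCM4 (-0.13 ± 0.038). MCM5, at 29.8 and 30.2 CPM in clone #1 and 29.0 in each library of clone #2, was the 1 member not called. By role, the MCM genes called lower in clone #2 were 3 of 5 and the 4 others were all higher. The MCM6 call was lost with library totals as the only scaling (0.064), and the MCM4 call without clone #2 library 1 (-0.12).

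Within the helicase group, MCM5 was called in each clone on its own in the same direction (0.12 and 0.15), but DESeq2 called neither (adjusted p = 0.104 and 0.0708). Neither call stayed without wild type library 2 (0.062 and 0.097), and the calls were also lost without clone #1 library 2 (0.099) and without clone #2 library 1 or 2 (0.15 in both cases). MCM7 moved in clone #1 (0.18) and showed 0.0084 in clone #2, and MCM6 showed -0.20, called, and -0.055, not called. The reductase subunits went together in clone #1, with RRM1 at -0.37 and RRM2 at -0.21, and neither was called in clone #2 (0.082 and 0.015). Clone #1 had 6 of 9 members called, beside 42.2% of all transcripts, and clone #2 had 4 of 9, beside 14.9%. DESeq2 called 2 of the 4 in clone #2, PCNA and TYMS. MCM2 in clone #2 (-0.14) was not called by DESeq2, without clone #2 library 1 or 2 (-0.12 and -0.15) or without wild type library 1 (-0.042, adjusted p = 0.696). With library totals as the only scaling, clone #2 lost MCM5 (0.11), and MCM4 was called in both clones in opposite directions (0.10 and -0.11).

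In Ribo-seq the mean of both MCTS1 KO clones was higher for PCNA alone (0.35 ± 0.063, adjusted p = 0.00110), 1 of 9 members beside 6.11% of the 115412 transcripts tested, and the median over the members was 0.13 beside -0.0091. PCNA was at 93.2 and 88.4 CPM in wild type, 116 and 114 in clone #1, and 118 and 120 in clone #2. All 4 KO libraries were above both wild type libraries. The other members ran from -0.20 (RRM1) to 0.18 (TYMS and MCM7). Taken alone, clone #1 had 5 of 9 members called, beside 16.7% of all transcripts, and clone #2 had 2 of 9 (PCNA and TYMS), beside 3.62%. In clone #1, MCM4 lost its call without any 1 clone library (0.21 to 0.24), MCM7 without clone #1 library 1 (0.29) and MCM2 without clone #1 library 2 (0.24). There MCM5 was called with no filter (0.24) or without wild type library 1 (0.22), and RRM2 without wild type library 2 (-0.33). Both clone #2 calls were lost without either library of that clone (0.39 and 0.37 for PCNA, 0.47 and 0.39 for TYMS). Without wild type library 2, MCM7 (0.25), RRM1 (-0.36) and RRM2 (-0.26) were called as well, without wild type library 1 TYMS was (0.28), and MCM7 was also called with no filter on low counts (0.20). RRM1 in the wild type libraries stood at 86.9 and 69.8 CPM, a wider gap than in any other group of this assay and gene.

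Between the clones, Ribo-seq gave the same direction as RNA-seq for the 5 members called. TYMS was at 36.2 and 31.7 CPM in wild type, 32.0 and 33.4 in clone #1 and 44.9 and 47.2 in clone #2, with clone #2 above all others (0.50 ± 0.084 against clone #1, adjusted p = 1.47e-04). RRM1 was at 60.0 and 58.4 CPM in clone #1 and at 79.0 and 80.7 in clone #2 (0.44 ± 0.088). MCM2 (-0.29), MCM4 (-0.25) and MCM7 (-0.23) were lower in clone #2. That is 5 of 9 members beside 18.6% of all transcripts. With 1 of the 4 clone libraries left out, between 1 and 3 of these calls stayed: MCM4 and MCM7 lost theirs without any 1 of them (-0.28 to -0.23 and -0.26 to -0.22), MCM2 without clone #1 library 2 or clone #2 library 1 or 2 (-0.26, -0.26 and -0.33), and RRM1 without clone #2 library 2 (0.42). RRM2 (0.15) was called without either wild type library (0.15 in both cases).

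**Figure D2:**
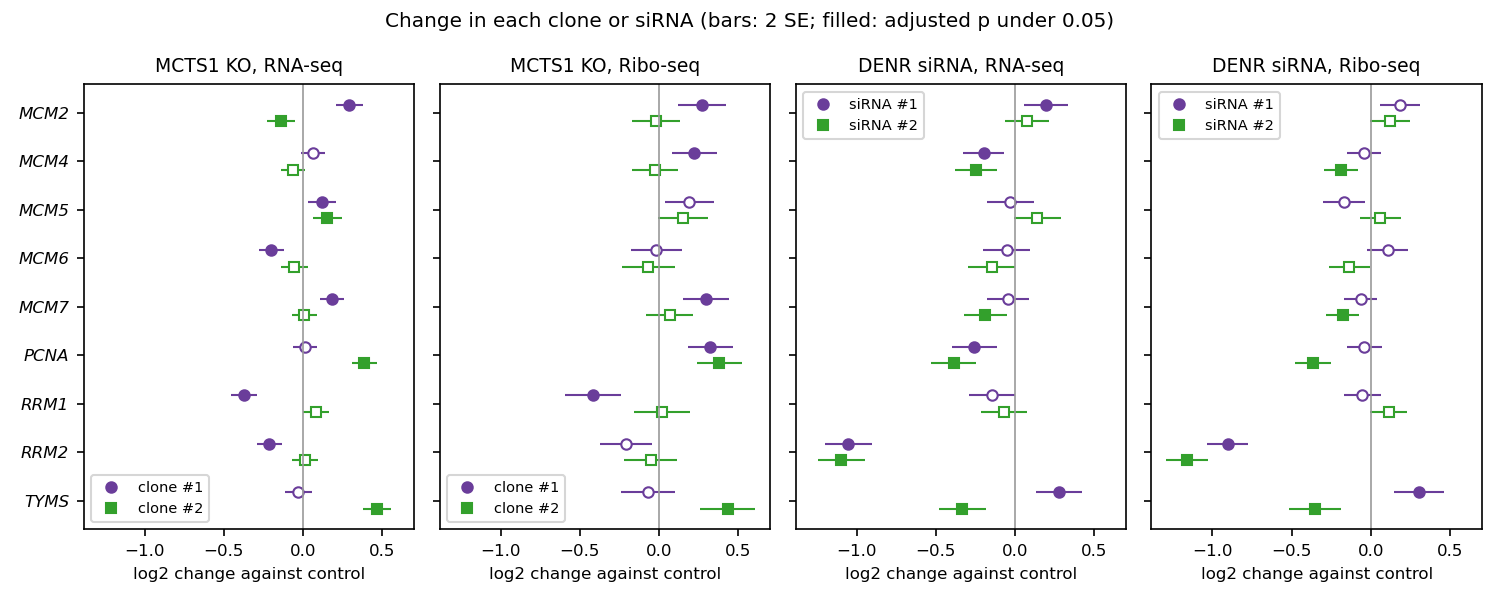
Log2 change of each gene in each MCTS1 KO clone against wild type and in each DENR siRNA against siControl, in RNA-seq and Ribo-seq, with bars of 2 SE and filled symbols for adjusted p under 0.05. RRM2 is near -1 for both DENR siRNAs in both assays, and TYMS lies on opposite sides of 0 for the 2 siRNAs.

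With DENR siRNA, RRM2 fell further than any other member. In RNA-seq RRM2 was at 53.2 and 54.8 CPM in siControl, 24.0 and 28.0 with siRNA #1 and 25.7 and 26.6 with siRNA #2. The 4 depleted libraries lay together and far below both controls. Its log2 change was -1.07 ± 0.062 (adjusted p = 1.19e-21), a level 0.475 times that of the control, with -1.05 for siRNA #1 and -1.10 for siRNA #2. Taken alone, siRNA #1 had 5 of 9 members called, beside 26% of all transcripts, and siRNA #2 also 5 of 9, beside 19.2%. RRM2, PCNA, MCM4 and TYMS were called with each, MCM2 with siRNA #1 and MCM7 with siRNA #2. In the distribution of all tested transcripts this change lay at percentile 0.609. PCNA fell by 0.32 ± 0.061 (adjusted p = 3.79e-05), from 52.5 and 53.2 CPM to 40.8, 47.5, 41.4 and 42.4. MCM4 fell by 0.22 ± 0.057 (adjusted p = 0.00252), from 70.2 and 69.1 CPM to 58.5, 62.7, 59.9 and 62.1. For both genes every depleted library was below every control.

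The other members of the group did not pass the test. MCM2 (0.14), MCM5 (0.057), MCM6 (-0.098), MCM7 (-0.11), RRM1 (-0.11) and TYMS (-0.027) had adjusted p-values of 0.0892 to 0.813. Thus 3 of 9 members were called, all lower, beside 12.7% of 131311 transcripts called lower and 23.1% called in either direction. The median over the members was -0.11 and over all transcripts -0.0079. Ribonucleotide reductase was split by subunit: RRM1 stood at 33.2 and 32.7 CPM in siControl and 28.2, 31.2, 31.9 and 33.3 with DENR siRNA, values that overlap. MCM4 lost its call without either siControl library (-0.23 and -0.22, adjusted p = 0.0550 and 0.0677). Without siRNA #1 library 1, MCM2 (0.13) and MCM7 (-0.15) were called, without library 2 MCM2 (0.15), MCM6 (-0.13) and RRM1 (-0.14), and with library totals alone MCM2 (0.16).

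Taken alone, each siRNA kept its RRM2 call in RNA-seq under every setting tried, and siRNA #2 also kept PCNA and TYMS, while other calls were lost. For siRNA #1, MCM2 was lost without either siControl library (0.20 and 0.19) or either siRNA #2 library (0.19 in both cases). MCM4 was lost without either siControl library (-0.20 in both cases) or siRNA #1 library 1 (-0.15), and PCNA without siControl library 2 (-0.23) or siRNA #1 library 1 (-0.15). RRM1 was called without siRNA #1 library 2 (-0.22). For siRNA #2, MCM4 was lost without any 1 siControl or siRNA #2 library (-0.26 to -0.23). MCM7 was lost with DESeq2 (adjusted p = 0.0990), with library totals alone (-0.13), and without siControl library 2 (-0.096) or siRNA #2 library 1 or 2 (-0.25 and -0.13). MCM5 and MCM6 were called without either siRNA #1 library (0.14 and -0.15), and MCM5 with library totals alone (0.20).

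TYMS moved in opposite directions with the 2 siRNAs, and its mean change was near 0. It was at 28.4 and 29.4 CPM in siControl, 34.0 and 36.1 with siRNA #1 and 23.3 and 24.4 with siRNA #2. Every siRNA #1 library was above the controls and every siRNA #2 library below. The log2 change was 0.28 ± 0.073 for siRNA #1 (adjusted p = 0.00271, and 0.24 with adjusted p = 0.102 without siControl library 1) and -0.33 ± 0.074 for siRNA #2 (adjusted p = 5.79e-04). Their difference of -0.61 ± 0.074 was called in 1 of the 9 members (adjusted p = 1.37e-09), beside 24.9% of all transcripts. MCM5 was also called between the siRNAs with library totals alone (0.23) and without siRNA #1 library 1 (0.25), as was PCNA without that library (-0.23) and MCM7 without siRNA #1 library 2 (-0.21). Off-target effects of either siRNA were not tested.

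In Ribo-seq the RRM2 fall was of the same size. RRM2 footprints were at 86.0 and 90.2 CPM in siControl, 48.0 and 47.9 with siRNA #1 and 41.3 and 38.4 with siRNA #2. The log2 change was -1.03 ± 0.054 (adjusted p = 5.23e-22), again with no overlap. PCNA fell by 0.20 ± 0.048 (adjusted p = 0.00210), and the 2 siRNAs differed: 101 and 100 CPM in siControl stood beside 100 and 98.1 with siRNA #1 and 81.7 and 75.9 with siRNA #2. The count was 2 of 9 members, both lower, beside 6.05% of 108890 transcripts called lower and 10.4% in either direction, and the median over the members was -0.053 beside -0.017. Taken alone, siRNA #1 had 2 of 9 members called (RRM2 and TYMS), beside 10.6% of all transcripts, and siRNA #2 had 5 of 9 (MCM4, MCM7, PCNA, RRM2 and TYMS), beside 9.21%. Without siControl library 2, siRNA #2 lost MCM4 (-0.14), MCM7 (-0.16) and TYMS (-0.31, adjusted p = 0.0507). MCM7 was also lost with no filter (-0.19) and without siControl library 1 (-0.20) or siRNA #2 library 1 or 2 (-0.16 and -0.20), MCM4 without either siRNA #2 library (-0.18 and -0.20) and TYMS without siRNA #2 library 2 (-0.24). With siRNA #1, TYMS was lost without siControl library 1 (0.27, adjusted p = 0.0933) or siRNA #1 library 1 (0.24, adjusted p = 0.163). There MCM2 was called with 1 transcript per distinct count profile (0.18), with library totals alone (0.21) and without siRNA #2 library 1 or 2 (0.18 and 0.19). The remaining 7 ran in the mean from -0.12 (MCM7) to 0.15 (MCM2), and MCM2 was called with library totals alone (0.17) and without siRNA #2 library 2 (0.18).

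Between the siRNAs, 5 of 9 members differed in Ribo-seq, beside 11.1% of all transcripts. Footprints with siRNA #2 were lower for TYMS (-0.66 ± 0.083), PCNA (-0.32 ± 0.057), RRM2 (-0.25 ± 0.068) and MCM6 (-0.24 ± 0.066) and higher for MCM5 (0.23 ± 0.067). TYMS footprints were at 33.3 and 35.0 CPM in siControl, 44.9 and 41.1 with siRNA #1 and 29.1 and 24.7 with siRNA #2, the same order as its mRNA. MCM5 lost the call with DESeq2 (adjusted p = 0.0534) and without siRNA #1 library 1 or 2 or siRNA #2 library 2 (0.24, 0.21 and 0.18), MCM6 without library 1 of either siRNA (-0.24 and -0.22), and RRM2 without siRNA #1 library 1 or siRNA #2 library 2 (-0.25 and -0.21).

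Ratios within a library do not depend on its total. The ratio of RRM2 to RRM1 counts was 1.60 and 1.68 in siControl RNA-seq and 0.799 to 0.897 in the 4 libraries with DENR siRNA, and 1.14 and 1.18 against 0.453 to 0.667 in Ribo-seq. In MCTS1 KO the same ratio overlapped wild type, at 1.13 to 1.36 against 1.19 and 1.26 in RNA-seq. In RNA-seq and Ribo-seq the ratio of TYMS to RRM1 separated MCTS1 KO from wild type in both clones, at 0.973 to 1.02 against 0.770 and 0.784 in RNA-seq and 0.533 to 0.585 against 0.417 and 0.455 in Ribo-seq. In clone #1 RRM1 was lower and in clone #2 TYMS was higher, and the ratio was alike. TCP-seq did not show this in clone #2, at 0.283 and 0.278 beside 0.299 and 0.321 in wild type libraries 3 and 4, while clone #1 was at 0.451 and 0.417. PCNA to MCM2 was 1.26 and 1.32 in siControl RNA-seq and 0.863 to 1.03 with DENR siRNA. This was not particular to PCNA. The ratios of MCM4, MCM6 and MCM7 to MCM2 were also lower in every DENR siRNA library of both assays. For MCM4 in RNA-seq they were 1.69 and 1.72 in siControl against 1.24 to 1.41. The ratio of MCM5 to MCM2 overlapped siControl in both assays. All of these share the denominator MCM2, whose mean was higher with DENR siRNA, though not called in the mean of both siRNAs. It was 40.9 CPM in siControl RNA-seq against 46.8 and 44.7 with siRNA #1 and #2. In Ribo-seq it was 60.6 against 70.1 and 66.7. MCM6 footprints were higher than siControl with siRNA #1 and lower with siRNA #2. A lower ratio to MCM2 alone therefore does not show a fall of the other gene. These ratios were picked as description. An exact permutation test of 2 against 4 libraries cannot go below p = 0.133 (two-sided), so it was not used for calls.

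**Figure D3:**
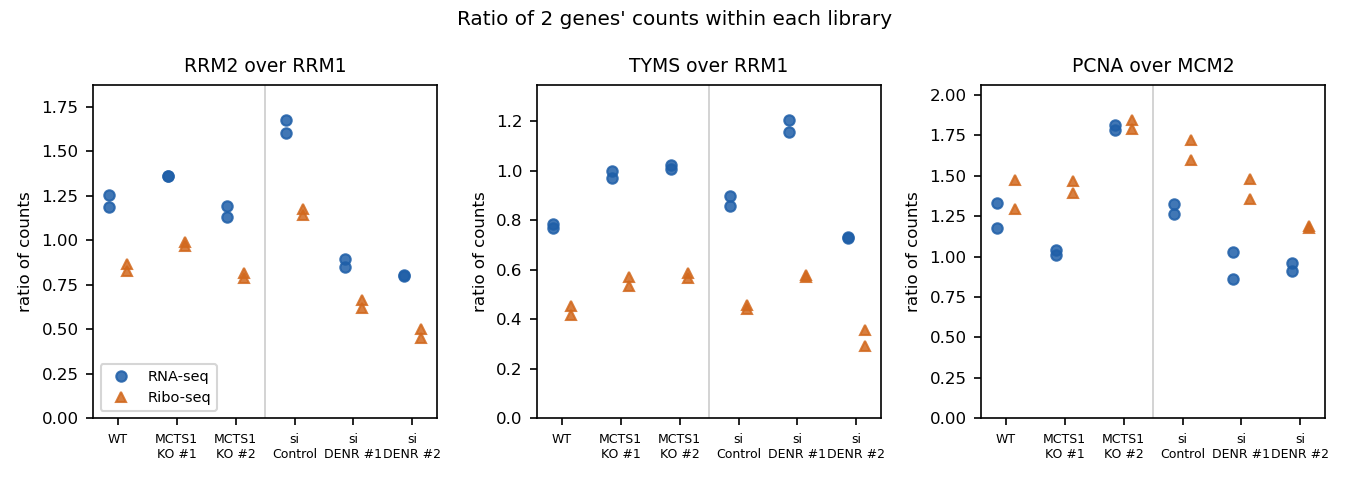
Ratio of the counts of 2 genes within each RNA-seq (circles) and Ribo-seq (triangles) library, on an axis from 0, for RRM2 over RRM1, TYMS over RRM1 and PCNA over MCM2. RRM2 over RRM1 is lower in every library with DENR siRNA than in both siControl libraries of the same assay, and TYMS over RRM1 is higher in all MCTS1 KO libraries than in wild type of the same assay.

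The responses to the 2 losses differed most for RRM2 and PCNA. With the change in each loss measured against its own control, MCTS1 KO exceeded DENR siRNA in RNA-seq by 0.98 ± 0.073 for RRM2, 0.52 ± 0.069 for PCNA, 0.25 ± 0.071 for TYMS, 0.22 ± 0.063 for MCM4 and 0.21 ± 0.070 for MCM7. That was 5 of 9 members, all in 1 direction, beside 10.5% of 135066 transcripts called higher and 20.2% in either direction. In Ribo-seq the difference held for RRM2 (0.91 ± 0.091), PCNA (0.56 ± 0.077) and MCM7 (0.31 ± 0.076), 3 of 9 beside 4.02% of all transcripts called higher and 7.5% in either direction. In RNA-seq the clones differed in all 5 of these members, and the siRNAs also differed in TYMS. These differences therefore describe no single clone, and for TYMS no single siRNA. In Ribo-seq the clones differed in MCM7 and the siRNAs in RRM2 and PCNA. Knockout clones were set beside siRNA-treated cells, so the gene lost and the way it was lost cannot be told apart. In RNA-seq the MCM7 call was lost with DESeq2 (adjusted p = 0.0572) and without clone #1 library 2, clone #2 library 1, wild type library 2, siControl library 2 or siRNA #2 library 2 (0.19, 0.20, 0.18, 0.12 and 0.18). Those of MCM4 (0.19) and TYMS (0.24) were lost without wild type library 2, and TYMS also without siControl library 2 (0.21). In Ribo-seq MCM7 lost its call without siControl library 2 (0.29), and RRM1 (-0.22) was called without wild type library 2 (-0.39).

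The controls themselves were not equal. In RNA-seq siControl cells were higher than untransfected wild type cells for MCM5 (0.27 ± 0.054), MCM7 (0.25 ± 0.049) and RRM2 (0.23 ± 0.049) and lower for MCM6 (-0.34 ± 0.050) and RRM1 (-0.20 ± 0.050), 5 of 9 members beside 32.2% of 128418 transcripts. In Ribo-seq 1 of 9 was called, RRM2 (0.37 ± 0.095, adjusted p = 0.00939), beside 9.59% of 107444. RRM2 RNA was at 47.0 and 45.3 CPM in wild type and 53.2 and 54.8 in siControl. Ordered by RRM2 RNA level, the DENR siRNAs overlapped at the bottom, MCTS1 KO clone #1 (40.6 and 41.2) came next, clone #2 (44.0 and 46.5) overlapped wild type, and siControl was on top. Transfection and any difference in preparation cannot be told apart in this contrast. RRM1 lost its RNA-seq call without wild type library 2 (-0.19). In Ribo-seq RRM2 lost its call without siControl library 1 or 2 (0.39 and 0.33), MCM7 was called with library totals alone (0.28) and, with MCM6 and RRM1, without wild type library 2 (0.30, -0.31 and -0.25), and MCM2 and MCM5 were called without library 1 (-0.21 and 0.24).

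Translational efficiency, the change in Ribo-seq beyond the change in RNA-seq, was tested as an interaction in 1 model over both assays. For MCTS1 KO, 0 of 9 members were called by edgeR, 0 had an unadjusted p under 0.05 and DESeq2 called 0, beside 0.872% of 108757 transcripts. That share rests on few libraries: 948 transcripts were called, 4848 without wild type Ribo-seq library 2 and 413 without wild type RNA-seq library 2. The largest value was that of PCNA (0.14, interval of 2 SE from -0.0031 to 0.28), and the members ran from -0.068 to 0.14 with a median of 0.033 beside -0.010. For DENR siRNA the result was likewise 0 of 9 by edgeR, 0 at an unadjusted p under 0.05 and 0 by DESeq2, beside 0.369% of 102515 transcripts, with a median of 0.040 beside 0.0074. RRM2 had a difference of 0.040 with an interval of -0.13 to 0.21, which is small beside its change of -1.07 in mRNA. In MCTS1 KO clone #1 alone PCNA was called (0.30 ± 0.080, adjusted p = 0.0178), 1 of 9 beside 5.4%, and it lost the call without clone #1 RNA-seq library 2 (0.30, adjusted p = 0.0601) or wild type RNA-seq library 1 (0.30, adjusted p = 0.0802). In the mean of the clones RRM1 (-0.068) was called when wild type Ribo-seq library 2 was left out (-0.24).

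**Figure D4:**
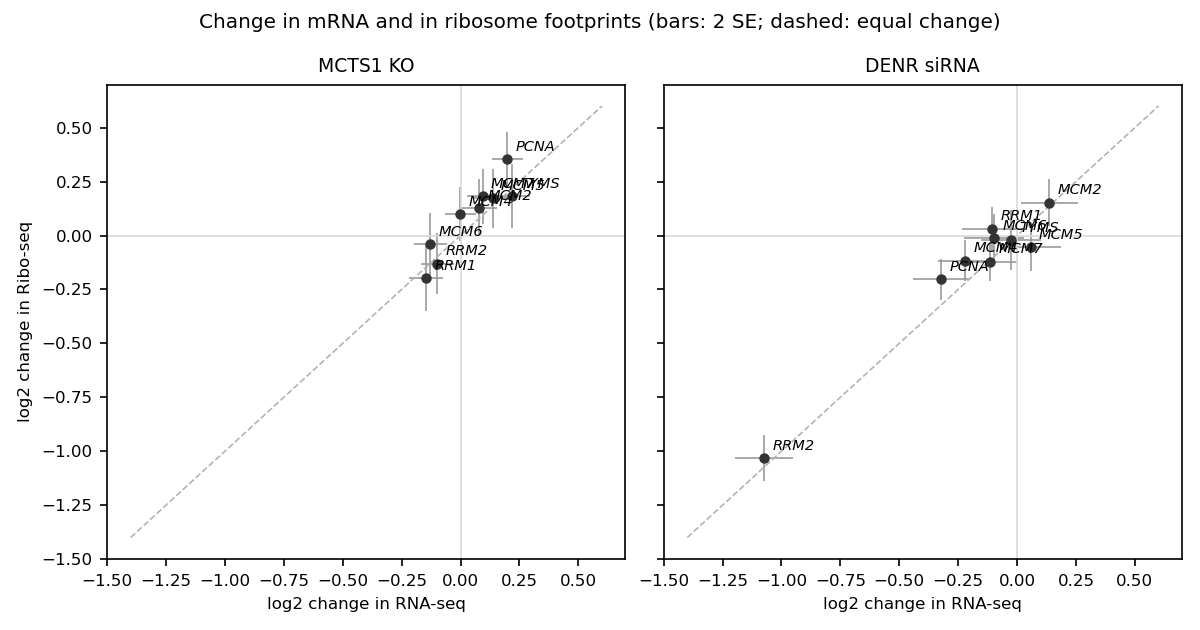
Log2 change in Ribo-seq against log2 change in RNA-seq for the 9 genes in MCTS1 KO and DENR siRNA (mean of both clones or siRNAs against control), with bars of 2 SE and a dashed line of equal change. RRM2 sits at -1.07 and -1.03 for DENR siRNA, close to the dashed line.

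In TCP-seq the eIF2D KO clones differed from wild type in 0 of 9 members by edgeR and 0 by DESeq2, beside 1.63% of 50991 transcripts. MCM5 alone had an unadjusted p under 0.05 (-0.42 ± 0.18, adjusted p = 0.267). It was at 23.7 and 26.5 CPM in wild type libraries 1 and 2, 17.0 and 18.3 in clone #1 and 21.6 and 20.1 in clone #2. The 4 KO libraries were below wild type libraries 1 and 2, whose names run with theirs, but overlapped wild type libraries 3 and 4, at 21.2 and 20.5. The intervals of 2 SE for the other members reached from -0.50 to 0.60, so values within these intervals are not excluded. The median over the members was -0.011 beside 0.0031 over all transcripts. The eIF2D KO clones differed from each other in 0 of 9 members by edgeR (1 at an unadjusted p under 0.05, 0 by DESeq2), beside 8.97%.

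For the mean of both MCTS1 KO clones, 2 of 9 members were called in TCP-seq, beside 13.8% of all transcripts. PCNA was at 67.7 and 46.8 CPM in wild type libraries 3 and 4, 72.1 and 71.5 in clone #1 and 108 and 98.9 in clone #2. Every KO library was above both, and clone #2 was above clone #1. The log2 change was 0.53 ± 0.12 (adjusted p = 9.46e-04), and clone #2 exceeded clone #1 by 0.45 ± 0.13 (adjusted p = 0.0289), 1 of 9 members called between the clones, beside 3.48%. RRM2 was at 43.6 and 32.1 CPM in wild type, 34.5 and 25.5 in clone #1 and 26.1 and 25.4 in clone #2, with overlap in clone #1 (-0.50 ± 0.16, adjusted p = 0.0230). Taken alone, clone #1 had 0 of 9 members called by edgeR (1 at an unadjusted p under 0.05, 0 by DESeq2), beside 4.91%, and clone #2 had both (0.75 for PCNA and -0.66 for RRM2), beside 18.9%. RRM2 in clone #2 lost its call with DESeq2 (-0.64, adjusted p = 0.0698) and without wild type library 3 (-0.43, adjusted p = 0.291). The median over the members was -0.039 beside -0.0052. For PCNA the direction was that of RNA-seq and Ribo-seq in clone #2.

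The TCP-seq calls leaned on few libraries. PCNA was not called without wild type library 4 (0.36, adjusted p = 0.143). RRM2 was not called with DESeq2 (-0.49), with no filter (-0.46), against wild type libraries 1 and 2 (-0.36), or without clone #1 library 2 (-0.38), clone #2 library 2 (-0.46) or wild type library 3 (-0.27). The PCNA difference between clones was lost with DESeq2 (0.45, adjusted p = 0.195) and without clone #1 library 1 or 2 or clone #2 library 1 (0.45, 0.45 and 0.38). Between the 2 knockouts 0 of 9 members differed by edgeR, 2 had an unadjusted p under 0.05 and DESeq2 called 0, beside 3.48% of all transcripts. PCNA came nearest (eIF2D KO minus MCTS1 KO -0.54 ± 0.17, adjusted p = 0.0576) and was called without clone #2 library 2 of MCTS1 KO (-0.60), wild type library 3 (-0.82) or clone #1 library 1 of eIF2D KO (-0.58).

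**Figure D5:**
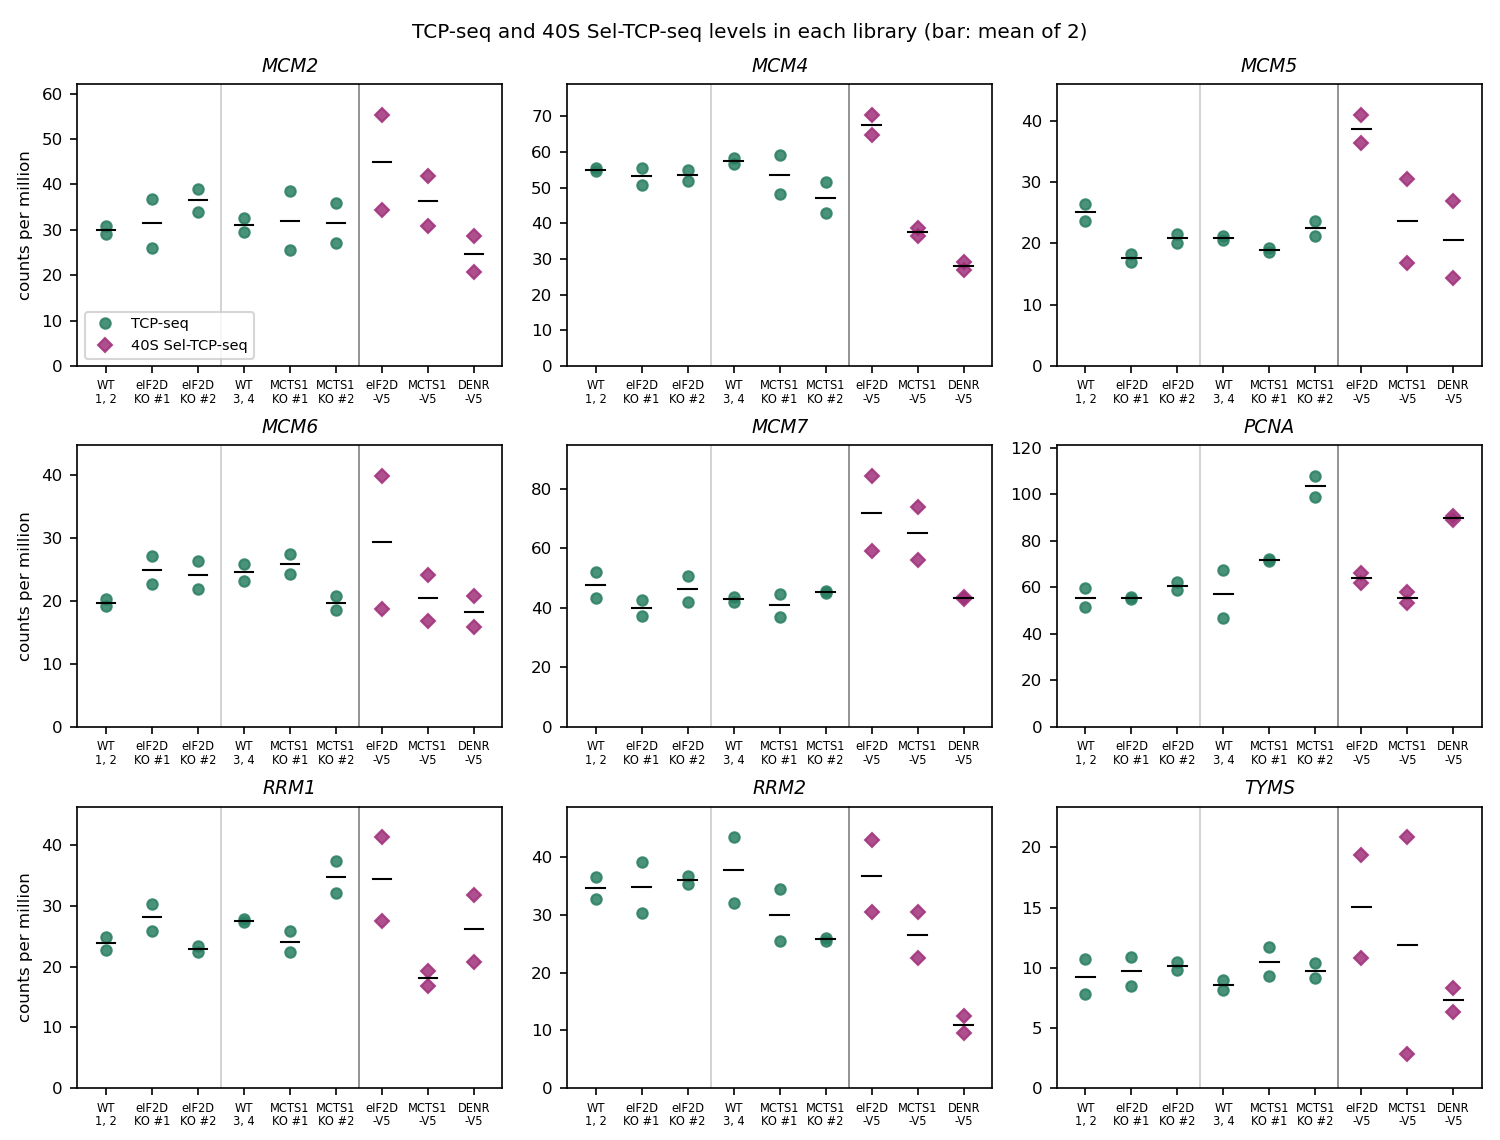
TCP-seq (circles) and 40S Sel-TCP-seq (diamonds) levels of the 9 genes in CPM, from 0, in each library, with a bar at the mean of 2 and wild type libraries split into those set against eIF2D KO (1, 2) and MCTS1 KO (3, 4). PCNA is highest in MCTS1 KO clone #2 among TCP-seq libraries, and RRM2 is lowest in DENR-V5.

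Among the selections, MCM4 and RRM2 were called higher with eIF2D-V5 than in the mean of MCTS1-V5 and DENR-V5. Neither was called against MCTS1-V5 alone, and both were against DENR-V5 alone. MCM4 was at 64.9 and 70.5 CPM with eIF2D-V5 (66 and 182 counts), 36.5 and 38.6 with MCTS1-V5 (13 and 24 counts) and 27.0 and 29.0 with DENR-V5 (17 and 14 counts). The eIF2D-V5 libraries were above all 4 others, with a log2 difference of 0.91 ± 0.29 (adjusted p = 0.0339). RRM2 was at 30.5 and 43.0 CPM with eIF2D-V5 (31 and 111 counts), 22.5 and 30.5 with MCTS1-V5 (8 and 19 counts) and 9.53 and 12.4 with DENR-V5 (6 counts in each). Its eIF2D-V5 libraries lay above DENR-V5 but touched MCTS1-V5, and the difference was 0.97 ± 0.33 (adjusted p = 0.0463). The count was 2 of 9 members beside 12.8% of 12135 transcripts called higher and 22.1% in either direction, that is 2681 transcripts, or 4498 with the replicate number as a block. The median over the members was 0.52 beside 0.030, and the 8 members other than PCNA (-0.29) had positive values.

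Against each reference alone, eIF2D-V5 exceeded DENR-V5 in MCM4 (1.08 ± 0.36, adjusted p = 0.0462) and RRM2 (1.57 ± 0.44, adjusted p = 0.0253), 2 of 9 beside 19% of all transcripts. Against MCTS1-V5, 0 of 9 were called by edgeR (1 at an unadjusted p under 0.05, 0 by DESeq2), beside 7.29%. DENR-V5 and MCTS1-V5 differed in 0 of 12135 transcripts by edgeR, with 824 at an unadjusted p under 0.05 and 0 by DESeq2, and for RRM2 the interval of 2 SE ran from -2.21 to -0.19. PCNA was at 90.5 and 89.1 CPM with DENR-V5, above 61.9 and 66.2 with eIF2D-V5 and 53.4 and 57.9 with MCTS1-V5. Its eIF2D-V5 minus DENR-V5 difference of -0.68 ± 0.28 was not called (adjusted p = 0.101), but it was called with the replicate number as a block (-0.68, adjusted p = 0.0305).

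Both calls rested on few counts and were lost with DESeq2 (adjusted p = 0.174 for MCM4 and 0.264 for RRM2). MCM4 was lost when any library but MCTS1-V5 library 1 was left out (0.83 to 0.93) and RRM2 when any library of eIF2D-V5 or DENR-V5 was (0.75 to 1.13), and RRM2 was also lost with no filter on low counts (1.13). The differences from DENR-V5 alone were lost with DESeq2 (1.10 and 1.58), with no filter (1.22 and 1.72), for MCM4 without any 1 of the 4 libraries (1.06 to 1.10) and for RRM2 without any but eIF2D-V5 library 1 (1.36 to 1.73).

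Against unselected wild type TCP-seq, the 3 selections together were higher in MCM7 (0.51 ± 0.17) and PCNA (0.40 ± 0.16) and lower in RRM2 (-0.58 ± 0.22), 3 of 9 members beside 31.3% of 35013 transcripts, with a median of 0.32 beside -0.10 over all transcripts. Selection and preparation cannot be told apart here. With library totals as the only scaling, the values were 0.35 for MCM7 and 0.23 for PCNA, neither called, and MCM4 was called lower (-0.48). DESeq2 kept MCM7 and lost RRM2 (-0.60, adjusted p = 0.0736), with no filter MCM7 was lost (0.33, adjusted p = 0.341), and PCNA was lost with nearly every change of setting (lowest 0.22, with no filter on low counts). By tagged factor, the ratio of Sel-TCP-seq to wild type TCP-seq CPM was above that of the median transcript for 8 of 9 members with eIF2D-V5, 6 with MCTS1-V5 and 4 with DENR-V5. RRM2 had the lowest of these ratios with DENR-V5 (0.303, percentile 7.34) and with eIF2D-V5 (1.01), and PCNA the highest with DENR-V5 (1.59, percentile 86.7). Leaving out 1 library at a time left between 0 and 3 of the 3 calls, and RRM2 was lost without either DENR-V5 library (-0.58 and -0.66) or wild type library 1, 2 or 3 (-0.56, -0.59 and -0.47), and MCM7 without either DENR-V5 library (0.44 and 0.49), MCTS1-V5 library 2 (0.41) or wild type library 2 or 3 (0.48 and 0.48).

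Across the 12 RNA-seq libraries, the transcripts whose level followed the mean of the members most closely were ENST00000512147.5 (Pearson's r 0.972) and ENST00000511081.5 (r 0.965), out of 39973 other transcripts with at least 5 CPM. These are descriptions over libraries that differ in depth. The genes of these transcripts were not identified here, so other transcripts of the member genes could not be left out.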

How the data were processed

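The 4 assays in HEK293T were analysed from 1 table of whole-number counts per transcript that the authors deposited. Per the submitters' processing notes, the tools were cutadapt, STAR and featureCounts of Subread and the builds GRCh38.p13 and hg38. The sources used here name no version, strand setting or rule for shared reads. Of 52 labelled samples, 42 in 20 groups had a column, and 10 were not analysed here. Groups came from the labels, which do not say that replicates were separate cultures, so p-values measure only the spread between these samples, which may be technical.

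Each comparison was fitted over all transcripts with edgeR 4.0.16 (quasi-likelihood test, robust, TMM factors, filterByExpr with a minimum count of 10) in R 4.3.3 with limma 3.58.1. A transcript was called at a Benjamini-Hochberg adjusted p under 0.05. The SE is the absolute log2 change over the square root of F. Each clone or siRNA had its own coefficient, and the main contrast was the mean of both against control. TCP-seq was 1 model over 12 libraries, with wild type libraries 1 and 2 set against eIF2D KO and 3 and 4 against MCTS1 KO, as their library names run together. CPM are counts per 1000000 of the library total. The fits were tested on simulated data with 200 changed transcripts.

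The members and lists were chosen with earlier results of these data known. All 9 members were named in every comparison, and at most 2 other transcripts by their correlation with the members' mean of log2(CPM + 0.5). A wider list of DNA replication genes, cell type markers and the targeted genes were not analysed here, since no table used here pairs transcript identifiers with symbols. Replicate noise exceeded counting noise in every pair of replicates (lowest chi-square per degree of freedom 1.20), so no library was merged. Alternatives were DESeq2 1.42.0, library totals as the only scaling, no filter, 1 transcript per distinct count profile, a replicate block, other wild type libraries in TCP-seq, and leaving out each library. After the data were seen, a block with crossed replicate numbers was added for siControl against wild type.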

Additional observations from a re-analysis of the deposited data

Results flagged for a closer look

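MCM7 in wild type TCP-seq library 1 (52.2 CPM) stood apart from the 3 others, at 42.0 to 43.7 CPM: its gap to the nearest was 0.835 of the range, above Dixon's critical value for 4 samples. Chance alone passes that limit in about 1 in 20 groups.

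The MCTS1 KO clones differed by their own test in 8 members in RNA-seq. Clone #2 minus clone #1 was -0.43 for MCM2, -0.13 for MCM4, 0.15 for MCM6, -0.17 for MCM7, 0.38 for PCNA, 0.45 for RRM1, 0.23 for RRM2 and 0.50 for TYMS on the log2 scale. In Ribo-seq it was -0.29 for MCM2, -0.25 for MCM4, -0.23 for MCM7, 0.44 for RRM1 and 0.50 for TYMS. In TCP-seq it was 0.45 for PCNA.

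The DENR siRNAs differed in TYMS RNA-seq, with siRNA #2 minus siRNA #1 at -0.61. In Ribo-seq they differed by 0.23 for MCM5, -0.24 for MCM6, -0.32 for PCNA, -0.25 for RRM2 and -0.66 for TYMS.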

How the results depend on the processing

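The members' values under other settings were counted in the comparisons of both clones, both siRNAs or all selections together and between arms. Of these, 2444 kept their call or lack of one, 34 gained a call, 96 lost one and none changed direction while called. Direction was not compared for values called under neither setting. Single clones and siRNAs are not in these counts, and their lost and gained calls stand in the report. RRM2 and PCNA kept their calls for the mean of both DENR siRNAs in both assays under every setting tried.

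The count of members called moved as follows. With DESeq2 it was 1 in MCTS1 KO TCP-seq (2 in the report), 0 between those clones (1), 0 for eIF2D-V5 against both others (2) and 1 for Sel-TCP-seq against unselected TCP-seq (3). With no filter it was 2 in MCTS1 KO Ribo-seq (1), and 1, 1 and 1 in MCTS1 KO TCP-seq, eIF2D-V5 against both others and Sel-TCP-seq against TCP-seq. Library totals alone gave 2 between the DENR siRNAs in RNA-seq (1) and 2 for siControl against wild type in Ribo-seq (1). Against wild type libraries 1 and 2, MCTS1 KO TCP-seq had 1 (2). Leaving out 1 library gave 4 to 8 in MCTS1 KO RNA-seq, 2 to 6 in DENR siRNA RNA-seq, 1 to 3 between the DENR siRNAs, and 2 to 5 for MCTS1 KO against DENR siRNA in RNA-seq. In Ribo-seq it gave 1 to 4 in MCTS1 KO, 1 to 6 between its clones, 2 to 5 between the siRNAs and 0 to 4 for siControl against wild type. It gave 0 to 1 for MCTS1 KO translational efficiency, 1 to 2 in MCTS1 KO TCP-seq, 0 to 1 between its clones, 0 to 1 for eIF2D KO against MCTS1 KO, 0 to 2 for eIF2D-V5 against both others and 0 to 3 for Sel-TCP-seq against TCP-seq. The cause was not tested.

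Over all transcripts, DESeq2 called 19290 in MCTS1 KO RNA-seq (32828 with edgeR) and 23378 for siControl against wild type (41301). In Ribo-seq it called 4229 in MCTS1 KO (7050), 12680 between its clones (21453), 6342 in DENR siRNA (11348), 7169 between the siRNAs (12123) and 4831 for siControl against wild type (10302). In TCP-seq it called 35 in eIF2D KO (831), 1153 between its clones (4575), 2225 in MCTS1 KO (7017), 289 between its clones (1772) and 247 between the knockouts (1776), and 1017 for eIF2D-V5 against both others (2681). With no filter the totals were 1594 for MCTS1 KO translational efficiency (948), 550, 3045 and 868 for eIF2D KO, its clones and the difference between knockouts, and 4139 for eIF2D-V5. With all 4 wild type libraries eIF2D KO had 2234, and with wild type libraries 3 and 4 in place of 1 and 2 it had 5414. MCTS1 KO had 3432 with 1 and 2 in place of 3 and 4. Leaving out 1 library moved the total from 2533 to 15401 in MCTS1 KO Ribo-seq, 413 to 4848 for its translational efficiency, 158 to 765 for that of DENR siRNA (378), 14751 to 40741 in DENR siRNA RNA-seq (30364), 5721 to 11593 in its Ribo-seq, 2541 to 7676 in MCTS1 KO TCP-seq, 182 to 1058 in eIF2D KO TCP-seq, 807 to 4611 for eIF2D-V5 against both others and 0 to 204 for DENR-V5 against MCTS1-V5 (0).

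The labels do not say what the replicate numbers pair in RNA-seq and Ribo-seq. Deviations of same-numbered libraries correlated between -0.262 and 0.448 in RNA-seq and between -0.170 and 0.267 in Ribo-seq. The highest value was between the 2 DENR siRNAs in RNA-seq, where siControl correlated with them at -0.219 and -0.262. No crossed replicate block was fitted for the DENR siRNA comparisons, so an opposite numbering of siControl there was not tested. With the replicate block MCM7 in MCTS1 KO RNA-seq was at 0.095 (adjusted p = 0.0513) and lost its call, and eIF2D-V5 against both others called 4498 transcripts and kept MCM4 and RRM2 (adjusted p = 0.00284 and 0.0124), while PCNA was called between eIF2D-V5 and DENR-V5 (-0.68, adjusted p = 0.0305). In Sel-TCP-seq all 3 correlations were positive (0.397, 0.121 and 0.101), from 2 numbers. Numbers of siControl and wild type correlated at -0.138 and -0.170, and the crossed replicate block, added after seeing the data, called 2 members in Ribo-seq against 1. No paired analysis was possible for MCTS1 KO TCP-seq because its libraries share no number with wild type libraries 3 and 4. TCP-seq and Sel-TCP-seq counts of 1 to 381 per member limit what could be detected there.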
